A study of Drosophila melanogaster with 8 samples.

Results

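The comparison set 2 libraries of fru+ cells from male brains against 2 libraries of fru+ cells from female brains, 4 of the 8 RNA-seq libraries of the series, and the libraries were taken by the sex and fru status in their sample labels. The question was which transcripts differ between the sexes in cells of the same lineages, which carry FruM in the male and lack it in the female. Flies were Drosophila melanogaster adults of 2 to 7 days on a w1118 background that carried UAS-mCD8-GFP over MB247-Gal80 together with Fru-GAL4, given as heterozygous in the labels and over a TM2 or TM6B balancer in the study's methods. GFP on the cell membrane marked the fru+ cells, optic lobes were dissected away, and Gal80 in the mushroom body kept its Kenyon cells out of the GFP gate, so that they fell into the fru- gate. All 4 groups (male fru+, female fru+, male fru-, female fru-) shared this genotype, and each library pooled the brains of several flies of 1 sex. Replicates with the same number were sorted in the same session, males and females side by side. The 4 fru- libraries are used below as the measure of sex differences outside the fru+ gate. They also enter the estimate of the spread, which all 4 groups share, and so the p-values of the fru+ comparison. With 2 libraries a group, p-values measure the spread between 2 sorting sessions, estimated over all 8 libraries.

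Fruitless (fru) encodes BTB zinc finger transcription factors. Transcripts from its P1 promoter are spliced by Transformer in females so that no full-length protein is made, whereas males translate them into FruM, which is required in neurons for male courtship. The same upstream switch, Sex-lethal, also sets dosage compensation: in males Msl-2 is translated and, with the noncoding RNAs roX1 and roX2, forms the complex that raises transcription of the single X, and in females Sex-lethal blocks it. A male to female comparison of fru+ cells therefore holds a part that any male and female cell would show, much of it on the X, and a part that may be particular to these neurons.

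The 4 fru+ libraries held 3.37 to 3.92 gigabases of aligned sequence, as estimated from the deposited coverage, and listed 9124 to 9327 genes at 1 TPM (a transcript level scaled for gene length and library size) or more. Rank correlations across the 10111 tested genes ran from 0.971 to 0.980 over the 6 library pairs. The sexes were about as alike as the female replicates, and the male replicates were the closest pair. More than 2-fold apart were 844 genes between the female replicates and 593 between the male replicates, which come from different sessions. Between male and female cells the numbers were 635 and 757 within a session and 863 and 813 across sessions. The summed level of 21 heat shock genes was 37474 and 34439 TPM in the male and female libraries of session 1 and 14485 and 19564 TPM in those of session 2, so it moved with the session and not with the sex. Marker levels were mostly those of neurons, with nSyb, the neuronal synaptobrevin, at 1566 to 2373 TPM and the glial factor repo at 0.659 to 2.81 TPM. The glial gene Gs2 was higher than repo, at 261 to 496 TPM. Summed over 9 hemocyte genes the level was 25.6 and 34.4 TPM in males and 32.2 and 37.9 TPM in females, most of it the scavenger receptor gene crq, with the defining marker Hml at most 0.522 TPM. Over 17 photoreceptor and muscle genes it was 99.3 and 84.4 TPM in males and 101 and 62.5 TPM in females, where the actin gene Act79B was at 11.9 and 8.72 TPM in males and 3.77 and 3.65 TPM in females and the muscle myosin Mhc at most 0.000486 TPM. Summed over 15 glial genes the level was 793 and 889 TPM in males and 827 and 549 TPM in females, with no separation of the sexes in the sum. The glial gene alrm was at 24.4 and 29.8 TPM in males and 15.4 and 17.7 TPM in females.

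The sex labels were checked first. The roX1 gene (lncRNA:roX1, X:3857230-3862697 in dm6, minus strand) was at 3452 and 3523 TPM in the male fru+ libraries and at 4.93 and 1.71 TPM in the female ones. The male libraries lay far above the female ones with no overlap, a log2 difference of 9.76 ± 0.30 (SE) on the log2(TPM + 1) scale with an adjusted p of 2.42e-07 by limma. The last bases of roX1 overlap ec on the other strand, which was at most 0.349 TPM in any fru+ library. The roX2 gene (lncRNA:roX2, X:11579065-11580432, plus strand) was at 342 and 339 TPM in males against 0.815 and 1.36 TPM in females, a difference of 7.37 ± 0.30 with an adjusted p of 2.14e-06. Transcripts of dsx, which makes sex-specific transcription factors in a subset of neurons, were at 7.42 and 5.93 TPM in males and 0.419 and 0.599 TPM in females. The sexes did not overlap for dsx, yet at this low level the difference of 2.34 ± 0.52 had an unadjusted p of 0.00124 and an adjusted p of 0.305 in limma and did not pass. Genes of the Y chromosome gave no check, since none of the 54 listed was tested and their sum was at most 1.06 TPM in any fru+ library. In bulk RNA, more cells that express a gene and more RNA per cell cannot be told apart, which holds for every value here.

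Across all genes 9 passed the test between male and female fru+ cells, at a Benjamini-Hochberg adjusted p under 0.05 in limma over 10111 genes (0.0890% of those tested). Of these, 7 were higher in males (0.0692%) and 2 in females (0.0198%), and all 9 are X-linked, although the X holds 1708 of the tested genes and the autosomes 8382. The smallest difference that passed was 1.85 on the log2 scale. The count fell to 5 without replicate 1 of the male fru+ cells, and roX1, roX2, comt, CG32625 and brv3 passed under every alternative that was run. The replicate block left 8 of the 9, without CG14195. A fit to the 4 fru+ libraries alone gave 7 genes, 6 of them among the 9.

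The comt gene (X:13259021-13262488, plus strand) encodes the N-ethylmaleimide sensitive factor NSF1, the ATPase that takes SNARE complexes apart after vesicle fusion. Male fru+ libraries had 21.9 and 32.8 TPM of it, and female fru+ libraries 458 and 411 TPM, a wide gap with no overlap. The difference of -3.97 ± 0.23 (adjusted p = 3.77e-05, limma) was the larger of the 2 called in this direction. Nsf2, its paralog on 3R, was at 26.9 and 26.5 TPM in males and 22.6 and 25.3 TPM in females and did not separate the sexes, so that male cells held about as much Nsf2 as comt on the TPM scale and female cells far more comt. The fru- cells showed the same gap, with 14.2 and 19.8 TPM in males and 453 and 417 TPM in females.

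The other called gene higher in females was Uros1 (X:8898554-8900264, minus strand), named for uroporphyrinogen III synthase of heme synthesis. Males had 11.1 and 9.58 TPM of it and females 36.8 and 42.9 TPM. The groups did not overlap, with a difference of -1.85 ± 0.24 and an adjusted p of 0.0214 in limma. In a limma fit to the 4 fru+ libraries alone Uros1 did not pass, at an adjusted p of 0.114. Its adjusted p ran from 0.0969 to 0.274 when any 1 of the 4 fru+ libraries was left out, above the threshold each time.

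Among the genes higher in males, CG32625 (X:13756164-13756826, minus strand) and brv3 (X:2622069-2624575, minus strand) were close to absent from female cells. CG32625 was at 20.4 and 28.6 TPM in males and at 0.179 and 0 TPM in females (4.54 ± 0.35, adjusted p = 0.000399, limma). The brv3 gene, which encodes a TRP channel of the Brivido family known from cold sensing, was at 19.98 and 20.8 TPM in males and 0.356 and 0 TPM in females (4.20 ± 0.34, adjusted p = 0.000559, limma). Its 3′ end overlaps Seipin on the opposite strand, and the libraries keep no strand, so reads in the overlap cannot be told apart. Seipin itself was at 3.96 and 4.73 TPM in males and 1.30 and 4.21 TPM in females, below brv3 in males, and its groups overlapped.

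CG4586 and CG14195, both protein-coding and of modest level in males, passed with less margin. CG4586 (X:6969918-6972265, plus strand) was at 9.23 and 8.996 TPM in males and 0.445 and 0.0429 TPM in females (3.04 ± 0.37, adjusted p = 0.0150, limma). CG14195 (X:19208694-19212082, minus strand) was at 7.92 and 11.4 TPM in males and 1.00 and 0.123 TPM in females (2.81 ± 0.39, adjusted p = 0.0355, limma). Its adjusted p was 0.0909 with the sorting session as a replicate block, and CG4586 stayed under the threshold there, at 0.0469. In a limma fit to the 4 fru+ libraries alone neither passed, at an adjusted p of 0.0675 for CG4586 and 0.172 for CG14195. With a pseudocount of 0.1 neither passed, at 0.124 for each. Leaving out any 1 fru+ library put CG4586 above the threshold, at 0.0503 to 0.221, and CG14195 lost its call without either male fru+ library or without replicate 2 of the female fru+ cells, at 0.221 to 0.404.

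The ninth gene was the antisense RNA asRNA:CR45009 (X:23007672-23009452, plus strand), which overlaps the fucosyltransferase gene FucTC on the minus strand. It was at 187 and 172 TPM in males and 43.2 and 47.3 TPM in females, a clear separation (1.96 ± 0.18, adjusted p = 0.00146, limma). The adjusted p was 0.0612 without replicate 1 of the male fru+ cells. A neighbouring noncoding gene inside FucTC, lncRNA:CR45010, was at 7.35 and 11.1 TPM in males and 0 and 1.67 TPM in females without passing (adjusted p = 0.270, limma), and FucTC was at 4.78 and 9.27 TPM in males and 2.86 and 0.922 TPM in females. The 3 features lie within a few kilobases and all were higher in males, but without strand their reads cannot be told apart.

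**Figure D1:**
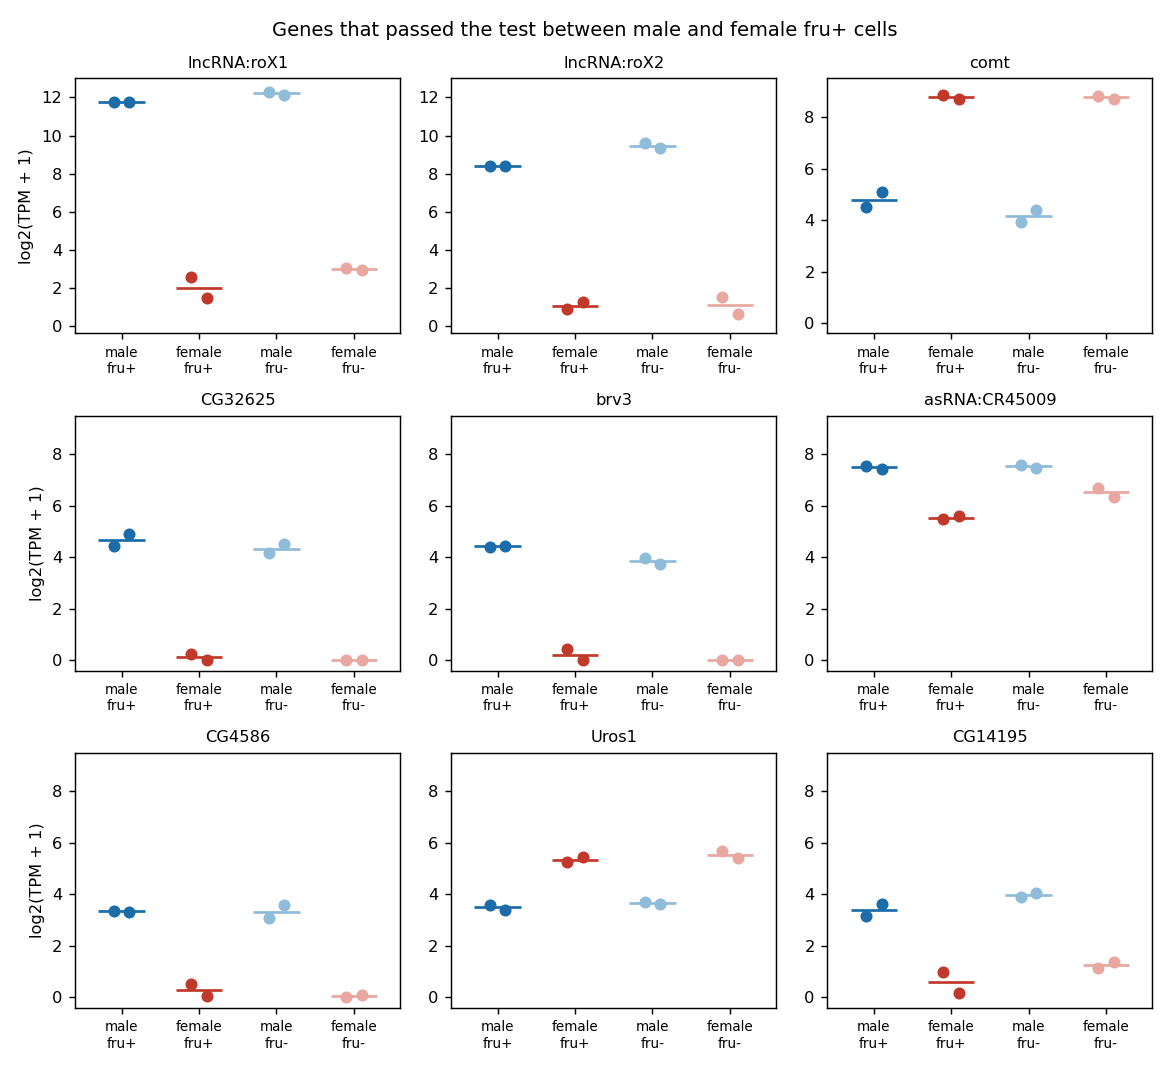
Levels of the 9 genes that passed the test, as log2(TPM + 1) on the vertical axis, in male fru+, female fru+, male fru- and female fru- cells; points are libraries, bars are group means of 2, and the roX panels have a taller axis. For each gene the male and female fru+ points lie apart, and the fru- points repeat the order, with asRNA:CR45009 the gene whose female fru- points lie nearest to the male ones.

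The medians of X-linked and autosomal genes lay close together. The median log2 difference, male over female fru+, was 0.014 over the 1708 X-linked genes and 0.029 over the 8382 autosomal genes, a difference of -0.016 between the medians. It was -0.045 in session 1 and 0.020 in session 2, so its sign was not fixed by the sex comparison. X-linked genes took 14.4% and 14.5% of all TPM in the male libraries and 14.4% and 14.5% in the female ones, although males have a single X. The male shares include roX1, at 3452 and 3523 TPM, and roX2, at 342 and 339 TPM, of totals of 980264 and 980887 TPM. In females both were at most 4.93 TPM, so leaving both out lowers the male shares more than the female ones. The shares without them were not computed, so the equal shares hold only with roX1 and roX2 included. The small chromosome 4 had a median of -0.051 over 94 genes, at -0.181 in session 1 and 0.054 in session 2.

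The sex differences of single X-linked genes were spread more widely than those of autosomal genes. At an unadjusted p under 0.05 in limma, 429 genes stood out over the genome (4.24%), 259 of them higher in males (2.56%) and 170 higher in females (1.68%). On the X this was 168 genes, or 9.84% of those tested, with 99 higher in males and 69 higher in females, and on the autosomes 256 genes, or 3.05%, with 158 and 98. Among genes of at least 10 TPM the standard deviation of the log2 difference was 0.572 for 1050 X-linked genes and 0.250 for 5351 autosomal genes. Without the 7 called genes among them, an alternative added after seeing the data, the X-linked value was 0.356. Over the genome 284 genes (2.81%) had no overlap between the sexes and differed at least 2-fold, of which 97 were X-linked (65 higher in males) and 177 autosomal (105 higher in males). These shares describe the libraries and were not tested over genes.

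**Figure D2:**
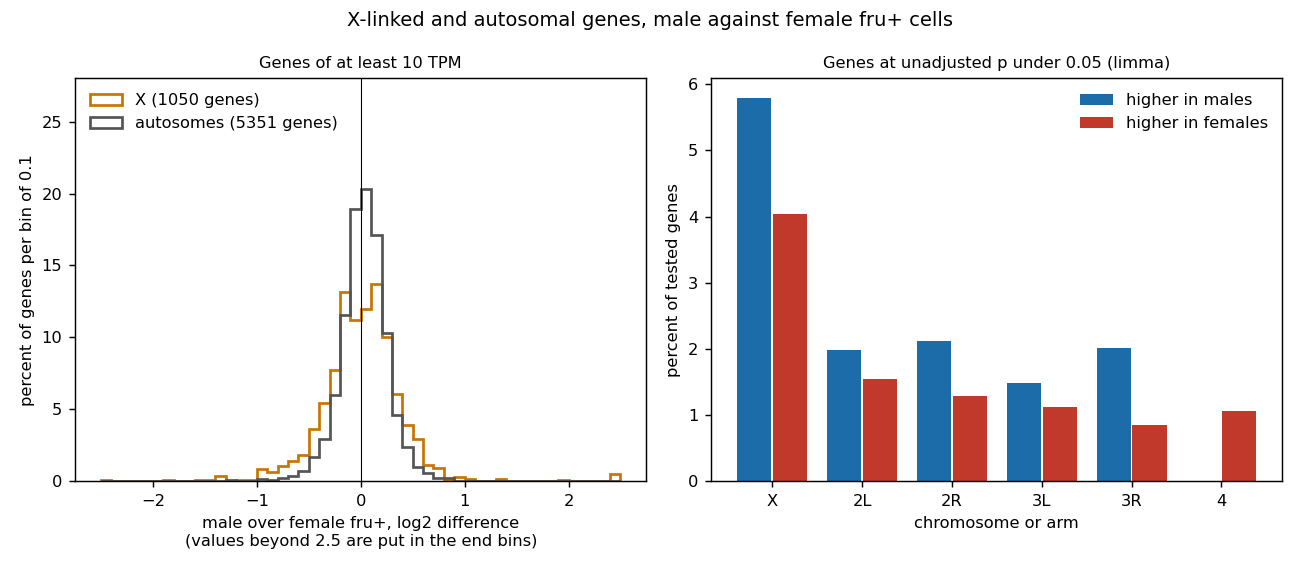
Left, the distribution of the male over female log2 difference in fru+ cells for X-linked (1050) and autosomal (5351) genes of at least 10 TPM, as percent of genes per bin. Right, the percent of tested genes at an unadjusted p under 0.05 on each chromosome or arm, by direction; both curves centre near 0, the X curve is wider, and the X bars, at 5.80% and 4.04%, stand above those of every autosomal arm.

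The other leading X-linked genes included several noncoding RNAs. Higher in males without passing were CG7860, at 9.98 and 13.2 TPM against 0.909 and 1.02 TPM in females (2.66 ± 0.41, adjusted p = 0.0729, limma), and Ppt1, the lysosomal palmitoyl-protein thioesterase, at 12.4 and 14.5 TPM against 2.60 and 2.01 TPM (2.13 ± 0.42, adjusted p = 0.195, limma). The noncoding lncRNA:CR44766 overlaps ras and stx and was at 41.3 and 23.8 TPM in males and 3.496 and 2.32 TPM in females (adjusted p = 0.251, limma). Its neighbour ras, the IMP dehydrogenase gene, was at 120 and 134 TPM in males and 141 and 130 TPM in females and did not follow it. The remaining genes named on this side, obst-A, lncRNA:CR44753, asRNA:CR44841 and CG14770, had differences from 1.06 to 2.29 and adjusted p from 0.273 to 0.385 in limma.

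Higher in females on the X were CG18508, at 390 and 444 TPM against 204.5 and 239 TPM in males (-0.91 ± 0.16, adjusted p = 0.115, limma), and the polyubiquitin gene Ubi-p5E, at 475 and 448 TPM against 295 and 296 TPM (-0.64 ± 0.14, adjusted p = 0.279, limma). CG8916, which encodes a GABA receptor subunit by homology, was at 14.3 and 13.4 TPM in males and 37.8 and 35.0 TPM in females (-1.33 ± 0.23, adjusted p = 0.118, limma). Both female libraries of CG8916 lay above both male ones by more than 2-fold, and in fru- cells the sexes overlapped, at 27.9 and 39.5 TPM in males and 35.4 and 38.2 TPM in females. The antiproliferative gene Tob was at 144 and 132 TPM in males and 298 and 245 TPM in females (adjusted p = 0.305, limma), and its sexes also overlapped in fru- cells. CG14798, lncRNA:CR32658, CG12116 and the chorion gene Cp7Fa had differences from -1.76 to -1.39 and adjusted p from 0.115 to 0.361. CG12116 and Cp7Fa both lie inside CG33223, so their values share a locus.

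No autosomal gene passed in limma, and 256 had an unadjusted p under 0.05. The smallest adjusted p among them was 0.0729, for Cpr49Ae on 2R, a cuticular protein gene. Its levels of 106 and 98.7 TPM in males stood against 35.3 and 26.4 TPM in females, with no overlap and a difference of 1.71 ± 0.26. In fru- cells it was low in both sexes, at 5.21 and 3.70 TPM in males and 6.72 and 6.22 TPM in females. The sex difference itself differed between the gates with an unadjusted p of 0.00018 and an adjusted p of 0.910 in limma. CAP, which encodes an SH3-domain adaptor of the actin cytoskeleton, was at 16.2 and 15.4 TPM in males and 2.13 and 3.30 TPM in females (2.20 ± 0.35, adjusted p = 0.0777, limma), and stayed between 2.60 and 4.51 TPM in the 4 fru- libraries. Fer1, a bHLH transcription factor gene, was at 184 and 179 TPM in males and 99.1 and 60.4 TPM in females (1.22 ± 0.22, adjusted p = 0.129, limma). Its adjusted p was 0.0217 without replicate 1 of the female fru+ cells.

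Other autosomal genes higher in males covered transcription factors and metabolism. Eip78C, an ecdysone-induced nuclear receptor, was at 10.9 and 11.9 TPM against 2.512 and 2.32 TPM in females (1.86 ± 0.37), and odd, a zinc finger factor of the odd-skipped family, was at 7.78 and 4.98 TPM against 0.825 and 1.12 TPM (1.88 ± 0.39). Their adjusted p were 0.210 and 0.264 in limma. The glycolytic enzyme gene Tpi was at 1284 and 1247 TPM in males and 791 and 792 TPM in females, a small but tight difference of 0.68 ± 0.16 (adjusted p = 0.387, limma). Pex10, a peroxisome biogenesis gene, was at 18.9 and 16.7 TPM against 7.47 and 8.53 TPM (adjusted p = 0.390, limma). Each of these genes separated the sexes without overlap, and none of them passed the adjustment over 10111 genes.

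Higher in females on the autosomes, CG13053 on 3L showed the widest gap, at 3.67 and 5.55 TPM in males and 67.5 and 70.3 TPM in females (-3.66 ± 0.63, adjusted p = 0.115, limma). It was at 0 to 2.85 TPM in the fru- libraries, and in a fit to the 4 fru+ libraries alone its adjusted p was 0.00609. Tmtc3, a protein O-mannosyltransferase gene, was at 12.3 and 17.5 TPM in males and 38.3 and 42.2 TPM in females (-1.40 ± 0.24, adjusted p = 0.115, limma), against 36.6 to 52.1 TPM in all 4 fru- libraries. For Tmtc3 the male fru+ libraries lay below all 6 others, and its adjusted p was 0.0458 with median-of-ratios scaling. The guanylyl cyclase receptor gene Gyc32E was at 4.39 and 2.495 TPM in males and 12.5 and 9.73 TPM in females (adjusted p = 0.520, limma).

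Lgr3, the relaxin-type receptor for the peptide Ilp8, was found at 2.40 and 2.25 TPM in males against 9.92 and 8.94 TPM in females of the fru+ gate. The difference of -1.65 ± 0.37 had an unadjusted p of 0.0012 and an adjusted p of 0.305 in limma. In fru- cells the order was the other way, with 7.95 and 6.30 TPM in males and 4.10 and 1.88 TPM in females. The difference between the 2 sex differences had an unadjusted p of 0.000395 and an adjusted p of 0.911, so it did not pass either. Lgr3 belonged to a list of 10 FruM partners and reported targets, of which 8 were tested. The corepressor genes bon (12.0 and 15.3 TPM in males, 16.8 and 9.54 TPM in females) and HDAC1 (35.0 and 51.2 against 35.5 and 47.4 TPM) overlapped between the sexes. The gene of the heterochromatin protein HP1a was at 304 and 301 TPM in males and 327 and 356 TPM in females (-0.17 ± 0.14), and robo1, the Slit receptor gene, differed by -0.35 ± 0.34. The list had a median of -0.120 beside 0.028 over all tested genes. Lgr3 was its only member at an unadjusted p under 0.05 in limma (12.5%, beside 1.68% of all tested genes higher in females). Without overlap 4 of the 8 (50%) were higher in females, Lgr3 and robo1 among them, and 0 in males, beside 12.6% and 17.0% of all tested genes.

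**Figure D3:**
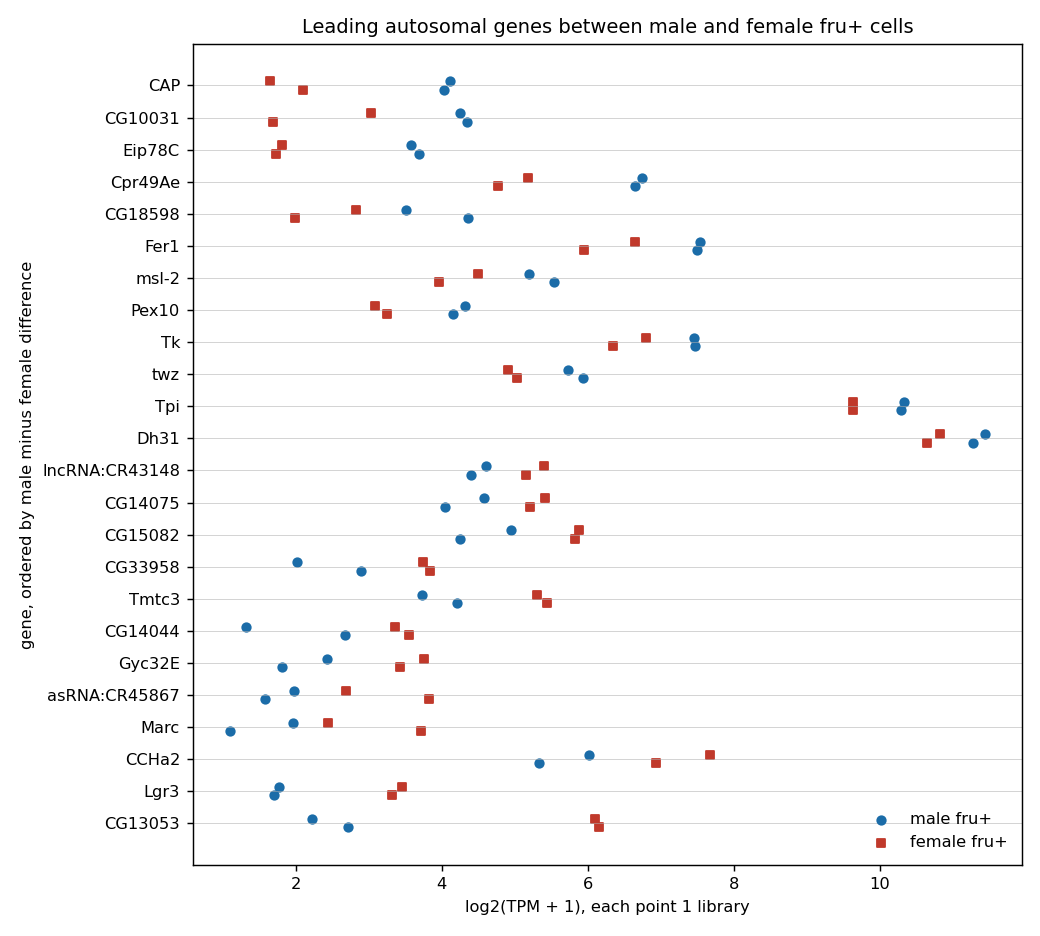
Leading autosomal genes between male (circles) and female (squares) fru+ cells, ordered by their difference; the horizontal axis is log2(TPM + 1) and each point is 1 library. The genes were chosen for not overlapping between the sexes, none passed the adjusted test, and CG13053 has the widest gap, at 3.67 and 5.55 TPM against 67.5 and 70.3 TPM.

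Among the 12 sex determination genes the sexes did not overlap for 3, 2 of them higher in males (16.7%) and 1 in females (8.33%). This was no more than the 17.0% and 12.6% of all tested genes. Total fru transcripts were at 56.2 and 63.1 TPM in males and 71.6 and 61.0 TPM in females (-0.15 ± 0.46), and gene-level values do not separate the sex-specific splice forms. Sxl, the switch gene, was at 102 and 77.7 TPM in males and 157 and 124 TPM in females (-0.64 ± 0.29, unadjusted p = 0.0543, limma). Its target tra was at 75.1 and 63.9 TPM against 82.7 and 74.0 TPM, and tra2 at 46.7 and 47.7 TPM against 47.3 and 51.6 TPM. Of the 12 genes in this list dsx alone had an unadjusted p under 0.05, and the list's median was 0.046.

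In the dosage compensation list of 9 genes, 3 (33.3%) were higher in males at an unadjusted p under 0.05 and none in females, with a median of 0.224. The shares of all tested genes were 2.56% and 1.68%. Beside the called roX1 and roX2 this was msl-2, the limiting subunit of the complex, at 35.8 and 45.4 TPM in males and 21.7 and 14.6 TPM in females (1.14 ± 0.26, adjusted p = 0.342, limma). The gene of the microRNA mir-4971 lies within msl-2 on the same strand, so reads there cannot be told apart. The core subunit gene msl-1 was at 9.89 and 12.3 TPM in males and 9.24 and 9.37 TPM in females, without overlap but within its error (0.22 ± 0.30). For the other members the sexes overlapped: mof was at 7.23 and 9.88 TPM in males against 5.95 and 7.28 TPM in females, mle at 61.3 and 70.8 TPM against 70.5 and 59.1 TPM, and msl-3 at 16.4 and 27.0 TPM against 18.7 and 24.7 TPM. Clamp and JIL-1 overlapped too.

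Many X-linked sex differences of fru+ cells were present in fru- cells too. The 2 comparisons share no library, though the cells came from the same brains. Between male and female fru- cells 11 genes passed (0.109%), 8 higher in males (0.0791%) and 3 in females (0.0297%), and 4.99% of tested genes had an unadjusted p under 0.05. On the X, 78 of the 168 genes at an unadjusted p under 0.05 in fru+ cells (46.4%) were so in fru- cells too and in the same direction, which is 44.8% of the 174 found there, and 1 went the opposite way. On the autosomes this was 20 of 256 (7.81%), or 6.04% of 331, and 7 went the opposite way. Across genes of at least 5 TPM in fru+ cells, the rank correlation between the 2 sets of differences was 0.425 over 1231 X-linked and 0.198 over 6122 autosomal genes, where genes of 1 library are not independent. Among these genes of at least 5 TPM, those at least 2-fold apart and without overlap in fru+ cells had no overlap in the same direction in fru- cells in 27 of 37 cases on the X and 13 of 40 on the autosomes, while among all tested genes 20.5% had no overlap and were higher in males there and 13.3% higher in females. These shares were not tested against each other. The autosomal genes shared in direction included msl-2, the oxidative phosphorylation gene UQCR-C2 (0.44 in fru+ and 0.37 in fru- cells on the log2 scale) and the nuclear receptor gene Hr51 (0.87 and 1.10).

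The direct test of whether the sex difference depends on fru status gave 0 genes at an adjusted p under 0.05 in limma, and 237 (2.34%) at an unadjusted p under 0.05. The smallest adjusted p was 0.266, for the peptide gene Trissin. Its sex difference was -4.43 on the log2 scale in fru- cells, and its fru+ levels were 243 and 268 TPM in males and 234 and 617 TPM in females. Of the 9 called genes, asRNA:CR45009 had an interaction p of 0.00426 and roX2 of 0.0376, both unadjusted, and the others lay above 0.05. The X-linked genes CG7860, lncRNA:CR44766 and CG8916 had unadjusted interaction p of 0.00484, 0.00235 and 0.00522, with the sexes apart in fru+ and overlapping in fru- cells. The X-linked lncRNA:CR44753 had a smaller one, 0.000441 in limma, and its order was reversed in fru- cells. There it was at 10.5 and 9.45 TPM in males and 18.8 and 17.7 TPM in females. Statements that a difference is particular to fru+ cells therefore rest on unadjusted p-values.

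**Figure D4:**
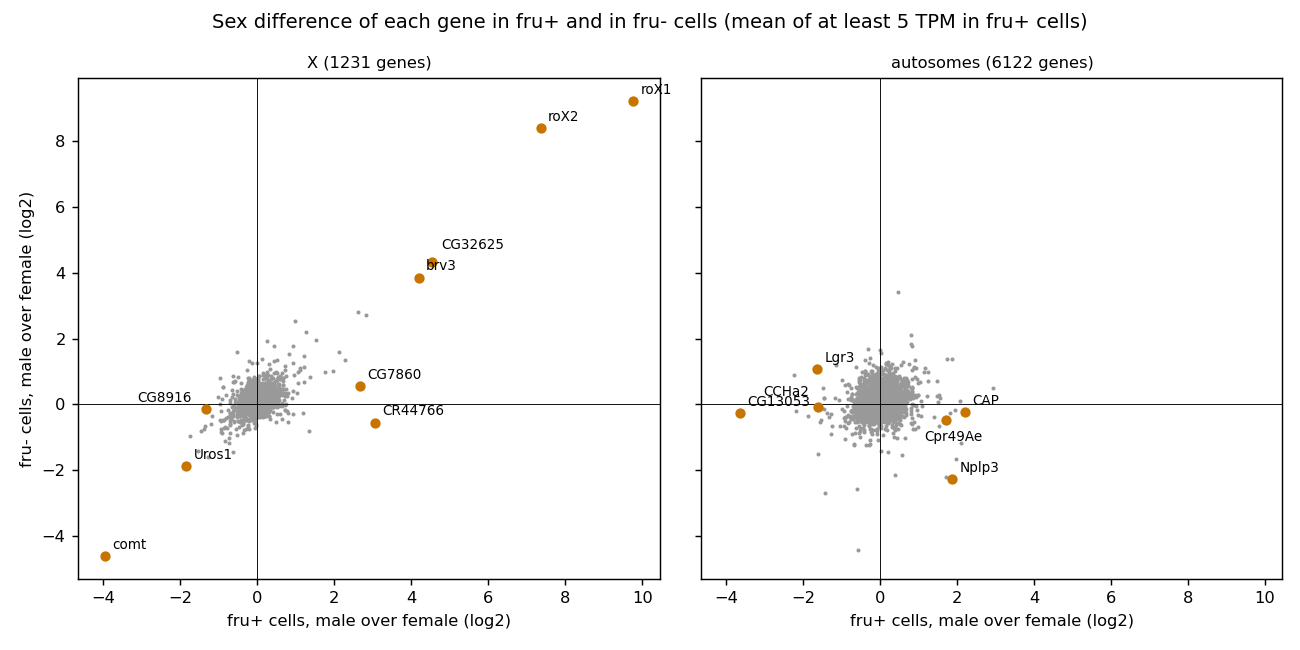
Male over female log2 difference in fru- cells (vertical) against that in fru+ cells (horizontal) for 1231 X-linked (left) and 6122 autosomal (right) genes of at least 5 TPM in fru+ cells; each point is 1 gene. Of the called X-linked genes shown, roX2, at 7.37 in fru+ and 8.39 in fru- cells, and asRNA:CR45009, at 1.96 and 1.02, lie farthest from the diagonal. CG4586, with a mean of 4.68 TPM, is not shown. Cpr49Ae, CAP and CG13053 lie along the horizontal axis, apart in fru+ and near 0 in fru- cells.

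Neuropeptide genes held several of the leading autosomal genes. Of 41 tested, 5 were higher in males and 3 higher in females at an unadjusted p under 0.05, or 12.2% and 7.32% beside 2.56% and 1.68% of all tested genes, none passed the adjustment, and the median was -0.013. CCHa2, a peptide known from nutrient signalling, was at 63.7 and 39.1 TPM in males and 203 and 121 TPM in females (-1.63 ± 0.28, adjusted p = 0.115, limma). In fru- cells CCHa2 lay between 164 and 187 TPM in every library, so that male fru+ cells, at 63.7 and 39.1 TPM, were the low group. The unadjusted p for the dependence on fru status was 0.00278 and the adjusted p 0.999 in limma. Dh31, the calcitonin-like diuretic hormone, was an abundant transcript, at 2770 and 2468 TPM in males and 1813 and 1594 TPM in females (0.62 ± 0.16, adjusted p = 0.464, limma). Tk, the tachykinin precursor, was at 175 and 177 TPM in males and 110 and 80.0 TPM in females (0.90 ± 0.22, adjusted p = 0.443, limma).

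The other peptide genes at this threshold were Nplp3, Ilp5 and spab higher in males, and Proc and sNPF higher in females. Nplp3 varied more than 3-fold between the male replicates, at 42.9 and 12.0 TPM, against 3.49 and 8.56 TPM in females. In fru- cells its order was reversed, at 58.2 and 36.1 TPM in males and 149 and 347 TPM in females. Ilp5, an insulin-like peptide made by a few large neurosecretory cells, was at 243 and 576 TPM in males and 39.1 and 225 TPM in females, and spab was at 750 and 626 TPM against 544 and 418 TPM. Proc, which encodes proctolin, was at 412 and 472 TPM in males and 618 and 640 TPM in females (-0.51 ± 0.18, adjusted p = 0.945, limma). The short neuropeptide F gene sNPF was at 582 and 671 TPM against 986 and 748 TPM (-0.46 ± 0.19). As sNPF is also abundant in Kenyon cells, the level of 10 Kenyon cell genes is given beside it: their sum was 1064 and 1091 TPM in males and 1672 and 1145 TPM in females, and 5 of 10 were higher in females without overlap and 0 in males, beside 12.6% and 17.0% of all tested genes. Of the defining markers, ey was at 11.9 and 11.8 TPM in males and 12.9 and 12.8 TPM in females, toy at 148 and 156 against 215 and 159 TPM, and prt, whose sexes overlapped, at 12.7 and 17.0 against 13.7 and 13.1 TPM. The part of Kenyon cells in these values was not tested.

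**Figure D5:**
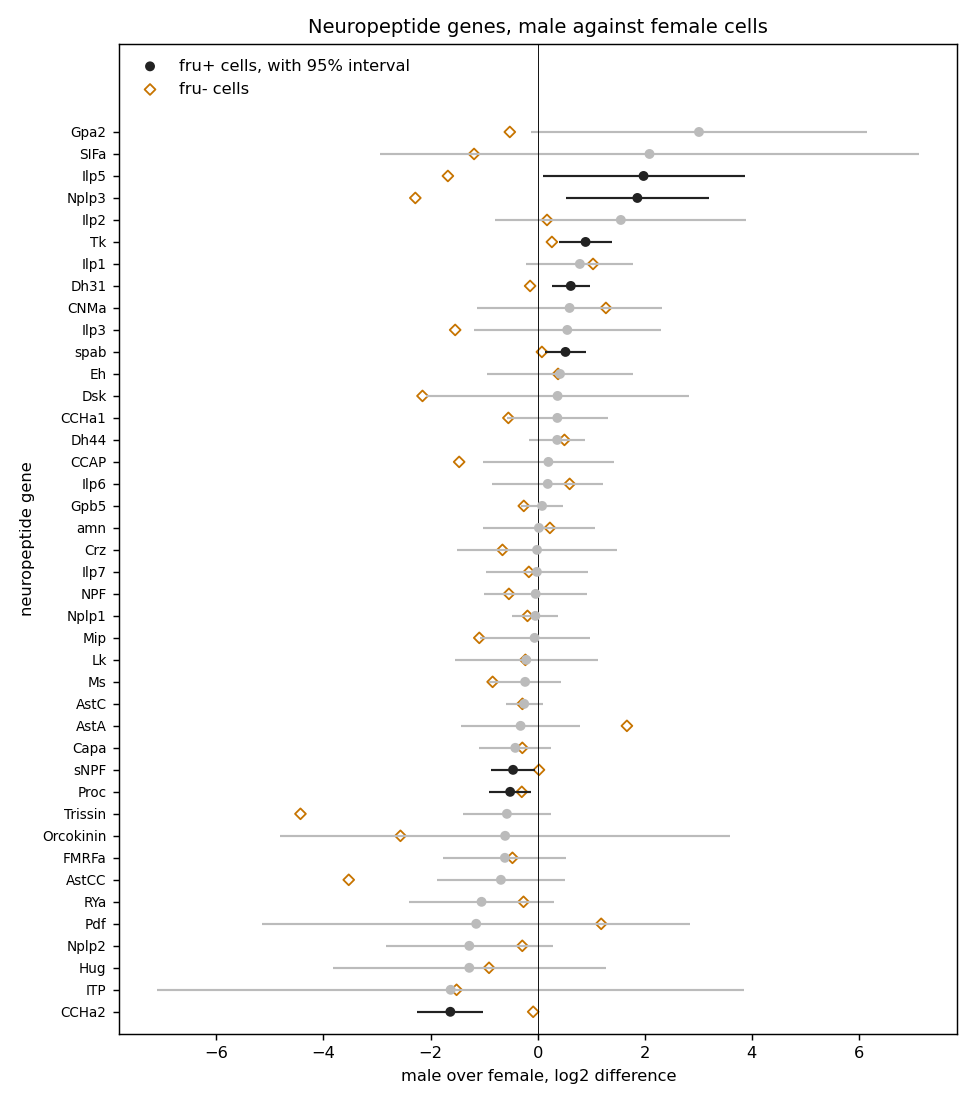
Male over female log2 difference of the 41 tested neuropeptide genes in fru+ cells (filled points with their 95% interval from limma, dark where the unadjusted p is under 0.05) and in fru- cells (open diamonds). CCHa2, at -1.63, is the lowest of the fru+ points, and most of their intervals cross 0.

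Among 41 peptide receptor genes 1 (2.44%) was higher in males and 3 (7.32%) in females at an unadjusted p under 0.05, beside 2.56% and 1.68% of all tested genes. Beside Lgr3 these were AstA-R1, a receptor for allatostatin A (55.0 and 49.5 TPM in males, 117 and 69.8 TPM in females), CG33639 (29.1 and 28.3 against 42.8 and 40.3 TPM) and, higher in males, the CNMamide receptor gene CNMaR (43.5 and 46.3 against 29.7 and 30.0 TPM). Of 44 transmitter receptor genes 1 (2.27%) was higher in males and 2 (4.55%) in females, among them CG8916. The histamine-gated channel gene ort was at 3.48 and 2.51 TPM in males and 0.318 and 1.23 TPM in females, and nAChRbeta3 was under 2 TPM in every library. Of 17 tested genes of transmitter production and transport, 7 (41.2%) were higher in females without overlap and 1 (5.88%) in males, beside 12.6% and 17.0% of all tested genes, with a median of -0.171. Only the dopamine transporter gene DAT had an unadjusted p under 0.05, at 172 and 217 TPM in males and 282 and 274 TPM in females (-0.52 ± 0.21, adjusted p = 1, limma). Trh, the tryptophan hydroxylase of serotonin synthesis, was at 221 and 239 TPM against 383 and 349 TPM (-0.67 ± 0.30), and Gad1, the enzyme that makes GABA, overlapped between the sexes at 3406 and 3430 against 4075 and 2486 TPM.

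Among 24 vesicle release genes comt passed and Sytbeta had an unadjusted p of 0.0401 in limma (16.6 and 12.97 TPM in males, 24.3 and 24.9 TPM in females). At an unadjusted p under 0.05 these 2 (8.33%) were higher in females and 0 in males, beside 1.68% and 2.56% of all tested genes. The partners of NSF overlapped between the sexes, with alphaSnap at 1648 and 1716 TPM in males and 1683 and 1550 TPM in females, Syx1A at 1249 and 1002 against 1347 and 903 TPM, and Snap25 at 222 and 262 against 277 and 256 TPM. Of 32 ion channel genes brv3 was the only one at an unadjusted p under 0.05 (3.1%, beside 2.56% of all tested genes higher in males). Of 94 cell surface recognition genes 1 was (1.06%), beside 1.68% of all tested genes higher in females. This was the beat family gene beat-Va, at 32.7 and 30.8 TPM in males and 53.9 and 45.1 TPM in females. Of the 94, 17 (18.1%) were higher in females and 4 (4.26%) higher in males without overlap, beside 12.6% and 17.0% of all tested genes. Neuron identity transcription factors gave 4 of 67 higher in males (5.97%, beside 2.56% of all tested genes) and 0 in females at that threshold. These were odd, the nuclear receptor gene Hr51 (20.1 and 22.2 against 12.2 and 10.1 TPM), and the homeobox genes otp (41.8 and 44.4 against 30.8 and 26.5 TPM) and Optix (44.1 and 45.3 against 35.4 and 30.0 TPM). Yet 18 of the 67 (26.9%) were higher in females without overlap and 7 (10.4%) in males, beside 12.6% and 17.0% of all tested genes, and the median was -0.090.

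A pair of further lists held genes near chromatin peaks that were open or closed in male fru+ cells, chosen by the study from ATAC-seq on cells sorted in the same way. Of 115 tested genes near peaks open in male fru+ cells, 5 were higher in males at an unadjusted p under 0.05 (CAP, Fer1, Pxn, Stacl and firl) and 0 in females, with a median of -0.028. Pxn, the peroxidasin gene, was at 56.8 and 61.5 TPM in males and 40.7 and 33.4 TPM in females (0.66 ± 0.20). Of 118 near peaks closed in male fru+ cells, twz was higher in males and Proc, CG13685 and Gyc89Db were higher in females, with a median of -0.063. Both medians lay below the 0.028 of all tested genes, and no member of either list passed the adjustment. At 4.35% and 2.54% of tested members, the male higher share of the first list and the female higher share of the second stood beside 2.56% and 1.68% of all genes. In fru- cells 8 of the 115 genes were higher in males at this threshold and 0 in females, with a median of 0.354. Of the 118 genes 5 and 0 were, with a median of 0.235. The fru- values over all tested genes were 3.59% and 1.40%, with a median of 0.038. Other lists had fru- medians of 0.439 (10 neuron genes), 0.373 (32 ion channel genes) and 0.287 (94 cell surface recognition genes). The median was -0.285 over 41 neuropeptide and -0.094 over 86 ribosomal protein genes. The neuron genes summed to 4904 TPM in replicate 1 of the female fru- cells and to 9109 to 10828 TPM in the other fru- libraries. The part of this in the fru- medians was not tested.

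Of 86 ribosomal protein genes 1 was higher in each direction at an unadjusted p under 0.05 and the median was -0.065. Of 68 oxidative phosphorylation genes, 14 (20.6%) were higher in males and 4 (5.88%) in females without overlap, beside 17.0% and 12.6% of all tested genes, with a median of 0.065, led by ND-75 at 576 and 627 TPM in males and 459 and 430 TPM in females. Of 269 antisense RNAs, 14 (5.20%) were higher in males and 5 (1.86%) in females at an unadjusted p under 0.05, with a median of -0.010, and of 526 long noncoding RNAs 13 (2.47%) and 20 (3.80%) were, with a median of -0.101. The same shares of all tested genes were 2.56% and 1.68%. Differences of at least 2-fold without overlap were found for 6.32% of the antisense and 6.08% of the long noncoding RNAs, beside 2.81% of all tested genes. The yolk protein gene Yp1, a marker of female fat body, was higher in males, at 6.99 and 4.67 TPM against 1.33 and 0 TPM (2.14 ± 0.48, adjusted p = 0.306, limma), and Yp2 was at 0.167 and 0.203 TPM in males against 1.92 and 0.843 TPM in females, all low levels.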

How the data were processed

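RNA was taken from fru+ and fru- cells sorted by GFP from central brains, and unstranded poly-A libraries were made from it. According to the study's methods reads were trimmed with Trim Galore, aligned to dm6 with HISAT2, kept if uniquely aligned above a mapping quality of 30, and cleared of duplicates. In the deposited gene tables the authors give TPM, FPKM and coverage from StringTie 2.1.1. FPKM values, made by the authors per kilobase and library size, and the deposited coverage, the mean read depth per base, served only to estimate depth as their ratio. No read counts were used, so the study's own count test was not repeated.

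Rows of loci assembled from the reads were dropped, rows of 1 gene were summed, and values were used as log2(TPM + 1), a scale that understates changes of low genes. The 10111 genes with at least 1 TPM in at least 2 of 8 libraries were fitted in limma 3.58.1 (R 4.3.3) with 4 group means and a variance trend. Tests were two-sided and adjusted by Benjamini-Hochberg over all tested genes. Precision is limited by 2 libraries a group: the median half-width of the 95% interval was 1.01 on the log2 scale at 1 to 5 TPM and 0.408 at 100 TPM or more. On simulated data for male and female fru+ cells with 10111 genes, 99 of 100 genes changed by 2 on the log2 scale and 100 of 100 changed by 3 were called, with 14 unchanged genes. The changed genes were drawn from those with a mean above 3 on the log2 scale and given normal noise at the fitted spread. The share therefore does not hold for low genes or for genes whose replicates vary more. In the data CG13053, at -3.66 on the log2 scale, did not pass (adjusted p = 0.115, limma).

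Named genes were the markers, all sex determination and dosage compensation genes, every called gene, the 8 X-linked and 12 autosomal genes a direction with the smallest p among those of at least 5 TPM without overlap, up to 3 a direction in each other list, and 9 genes named by the study or earlier results. The genes ec, bon, HDAC1, the HP1a gene, ras, Nsf2, FucTC, Seipin, Trissin, Trh, Gad1, alphaSnap, Syx1A, Snap25, Ilp5, spab, Optix, Stacl and firl were added after their values were seen. Members and lists were chosen with earlier results of these data known. The numbers of the replicates pair the libraries, since males and females of a number were sorted together; their deviations correlated at 0.20 across 10111 genes in fru+ cells. Alternatives were the pseudocount, the filter, the scaling, the libraries fitted, a replicate block, the trend, and leaving out each library.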

Additional observations from a re-analysis of the deposited data

How the results depend on the processing

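The 9 genes between male and female fru+ cells became 19 with no filter on low values, of which 7 were on the X, and 5 to 12 on leaving out 1 library, lowest without replicate 1 of the male fru+ cells. With the sorting session as a replicate block the count was 8, all among the 9, and the block changed no call but that of CG14195. The fru status test, at 0 genes (237 at an unadjusted p under 0.05), gave 1 with a pseudocount of 0.1 and 0 to 2 on leaving out 1 library. The 11 genes between male and female fru- cells became 7 with a mean above 5 TPM, 6 in a fit to their 4 libraries, and 6 to 18 on leaving out 1 library. The X minus autosome median of -0.016 ran from -0.0399 to 0.042, the last without replicate 1 of the female fru+ cells.

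Genes near 0 changed sign on leaving out 1 library, none of them past the threshold and for a cause that was not tested. Their ranges were -0.12 to 0.38 for ix, -0.086 to 0.17 for her, -0.18 to 0.28 for fl(2)d, -0.28 to 0.10 for snf, -0.030 to 0.30 for Spf45, -0.37 to 0.31 for msl-3, -0.10 to 0.15 for mle, -0.27 to 0.038 for Clamp, -0.20 to 0.0029 for JIL-1 and -0.15 to 0.018 for CG17716. The value for mle was also -0.0071 with median-of-ratios scaling. Of the other settings of 107 named genes, 1644 kept direction and side of the threshold, 26 lost the call and 12 gained it. The 26 losses were of asRNA:CR45009, CG4586, Uros1 and CG14195. Precision was lowest for low genes, with a median 95% half-width of 1.01 on the log2 scale at 1 to 5 TPM.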
